A study of Homo sapiens with 24 samples.

Results

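Homologous recombination and the neighbouring DNA damage repair pathways were followed here through 39 genes, listed by symbol, in LNCaP cells, a human prostate cancer line that grows in response to androgen. The list was BRCA1, BRCA2 and their partners (5 genes), recombination accessory factors (8 genes), resection and helicase factors (3 genes), the Fanconi core complex (8 genes), the FANCD2 and FANCI pair (2 genes), checkpoint factors (5 genes), mismatch repair factors (2 genes), PARP enzymes (2 genes) and end joining factors (4 genes). All 39 were present in every table, out of 23946 gene symbols in any table, and all 39 passed the filters on low values, so that none was lost before testing. RNA-seq had been performed in 2 experiments on cells held for 3 days in medium with charcoal-stripped serum, which is depleted of steroids. In the ligand experiment, cells received vehicle, 10 μM enzalutamide, an antiandrogen used in prostate cancer, or 10 nM DHT, a natural androgen, for 4 h or 24 h (n = 2 per condition). In the siRNA experiment, cells were transfected with a non-targeting siRNA (siControl) or with siRNA against GATA2 (siGATA2), a transcription factor, and then exposed for 24 h to vehicle or to enzalutamide at 25 μM (n = 3 per condition). The vehicle samples of the ligand experiment carried no time, and both experiments rest on 1 cell line, with doses of enzalutamide that differ between them.

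Homologous recombination repairs DNA double-strand breaks by copying the intact sister chromatid, and it therefore works mainly in the S and G2 phases, when a sister is present. Broken ends are first resected by nucleases such as EXO1 with the help of RBBP8 (CtIP), BRCA1 with BARD1 and PALB2 then brings BRCA2 to the break, and accessory factors such as XRCC2, XRCC3 and the RAD54 proteins assist the search for and invasion of the sister strand. The Fanconi anaemia pathway hands DNA crosslinks to the same machinery, the ATM and ATR kinases with CHEK2, CHEK1 and claspin (CLSPN) halt the cell cycle while repair proceeds, and end joining by the Ku proteins, the DNA-dependent protein kinase and LIG4 works in every phase. In prostate cancer these genes are known for inherited and acquired loss of BRCA2, ATM and their relatives, which sensitizes tumours to PARP inhibitors.

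Total estimated counts were 38894876 to 59985287 per library in the ligand experiment. Relative depths in the siRNA experiment, read from the steps of low RPKM values, differed by up to 1.306 times, and the depth itself is unknown. The labels name 4 vehicle samples in the ligand experiment, while 3 of the 4 vehicle columns carried replicate number 1. Each of these 3 had another prefix in its column name, called a set here, and the names do not say what it stands for. The 3 columns were summed to 1 library, so that n = 2 for vehicle was a choice made here. Whether they came from separate cultures is not known. The 2 libraries of enzalutamide at 4 h stood farthest apart among replicates, with a mean chi-square of 9.827 per gene, against 2.028 to 5.165 for the other pairs. Luminal prostate markers were expressed, with FOXA1 at 133 to 146 RPKM and HOXB13 at 130 to 147 RPKM, while TP63, KRT5 and PTPRC, which mark basal cells and leukocytes, did not exceed 0.0117 RPKM and the basal marker KRT14 did not exceed 0.113 RPKM. The stromal markers COL1A1 and VIM were detected, at 9.62 to 16.3 and 11.6 to 27.9 RPKM. The labels call the ligand libraries biological replicates and only number those of the siRNA experiment, so that p-values there measure the spread between these libraries, which may be technical.

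Promoter windows from RefSeq (GRCh38.p14) were searched on both strands for letters that are known from genes of the cell cycle. A single window per gene was used, from 250 bases before to 50 bases after an annotated start, so other starts of a gene were not covered. The table held 35 of the 39 genes and 27305 promoters in all. An E2F core, spelled TTCCCGC or TTGGCGC, was present in 19 of the 35 windows (54.3%), against 9.33% of all promoters. TTCCCGC alone was in 48.6% against 6.56%, and TTGGCGC in 8.57% against 3.12%. Among genes that were over 2-fold lower after 24 h of enzalutamide (below), 7 of 12 windows held one (58.3%), and among the other genes 12 of 23 (52.2%), so the letters were about as common in both. The CCAAT box was present in 45.7% of the 35 windows against 35.7% of all promoters, and the CHR element, TTTGAA, in 8.57% against 15.4%. CCAAT on the reverse strand reads ATTGG and can share letters with TTGGCGC. The windows below run from 150 bases before to 30 bases after the start, 5′ to 3′ on the strand of the gene, with these letters in capitals. The first 5, which all hold an E2F core, belong to genes that fell with enzalutamide and rose with DHT at 24 h. That of PMS2, which moved the other way, is shown for contrast. These windows are examples and not a sample of the list.
CLSPN (chr1:35769949-35770128, minus strand): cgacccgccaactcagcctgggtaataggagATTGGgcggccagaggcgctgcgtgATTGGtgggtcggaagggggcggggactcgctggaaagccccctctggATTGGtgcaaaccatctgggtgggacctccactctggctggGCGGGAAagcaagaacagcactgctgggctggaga
RAD54L (chr1:46247538-46247717, plus strand): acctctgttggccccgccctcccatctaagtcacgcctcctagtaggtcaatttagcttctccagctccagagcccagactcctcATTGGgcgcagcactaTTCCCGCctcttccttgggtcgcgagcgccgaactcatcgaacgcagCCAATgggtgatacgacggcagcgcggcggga
BRIP1 (chr17:61863499-61863678, minus strand): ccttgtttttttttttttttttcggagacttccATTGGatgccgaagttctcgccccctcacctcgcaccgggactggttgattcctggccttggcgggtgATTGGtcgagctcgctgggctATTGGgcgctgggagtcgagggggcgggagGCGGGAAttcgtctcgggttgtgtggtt
BLM (chr15:90717196-90717375, plus strand): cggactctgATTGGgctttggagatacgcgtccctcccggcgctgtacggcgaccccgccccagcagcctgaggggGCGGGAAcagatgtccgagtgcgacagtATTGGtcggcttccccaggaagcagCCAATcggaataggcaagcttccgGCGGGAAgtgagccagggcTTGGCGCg
FANCD2 (chr3:10026287-10026466, plus strand): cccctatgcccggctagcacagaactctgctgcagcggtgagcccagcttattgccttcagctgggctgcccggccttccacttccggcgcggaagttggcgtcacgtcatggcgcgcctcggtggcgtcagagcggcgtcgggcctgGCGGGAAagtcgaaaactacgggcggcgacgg
PMS2 (chr7:6009077-6009256, minus strand): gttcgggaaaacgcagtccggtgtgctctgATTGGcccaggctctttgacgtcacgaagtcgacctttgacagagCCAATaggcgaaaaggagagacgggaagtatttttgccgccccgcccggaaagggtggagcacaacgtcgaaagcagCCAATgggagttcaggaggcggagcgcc
A core spelled GCGGGAA on the printed strand lay within 8 bases of the start of CLSPN, BRIP1 and FANCD2, while the core of RAD54L, spelled TTCCCGC, began 49 bases before it. BLM, the Bloom helicase gene, held 3 cores in its window. PMS2 held CCAAT boxes and no E2F core. No core was found in the windows of EXO1, BRCA1, BRCA2, FANCB or CHEK1 either, which says only that these letters are not in those windows. The window of BRCA1 was chr17:43170278-43170577, and whether that start is used in these cells was not tested. A match is a description of letters, and binding was not measured.

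The 39 genes differed widely in abundance. In siControl cells on vehicle, where RPKM corrects for gene length, PARP1, which marks DNA breaks with poly(ADP-ribose), stood at 121 ± 1.77 RPKM (SD, n = 3) and XRCC6 (Ku70) at 117 ± 1.73, which could not be ranked against each other, and XRCC5 (Ku80) at 109 ± 3.42. BARD1, the partner of BRCA1, stood at 56.1 ± 1.59 RPKM, while BRCA1 itself stood at 6.3 ± 0.698. BRCA2 was lower, at 3.97 ± 0.398 RPKM, and the lowest were BRIP1 (1.83 ± 0.147), BLM (1.61 ± 0.126), FANCB (1.39 ± 0.129) and RAD51B (0.98 ± 0.0875). The median gene stood at 6.23 RPKM. Between neighbours in this order the libraries did not overlap in 12 of 38 pairs, so that most neighbours, such as BRCA1 and MSH6 or ATR and PMS2, could not be ranked against each other.

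Most of these repair genes fell after 24 h of enzalutamide and rose after 24 h of DHT. A gene was called when its Benjamini-Hochberg adjusted p over all genes tested in the comparison was below 0.05 with edgeR's quasi-likelihood test (15555 genes in the ligand experiment). At 24 h of enzalutamide against vehicle, 30 of 39 were called lower and 2 higher, with a median log2 fold change of -0.66 (1.58-fold lower), against 0.01 for all genes tested. Of all genes tested, 17% were called lower and 16.4% higher, and 13 of the 39 were over 2-fold lower, against 1.82% of all genes. At 24 h of DHT against the same vehicle libraries, 33 were called higher and 3 lower, with a median of 0.67 (1.59-fold higher), against 26.9% of all genes called higher and 23.2% lower. Over 2-fold higher were 6 of the 39, against 2.03% of all genes. Both comparisons share their vehicle libraries. In bulk RNA, fewer cells in a phase of the cycle and less RNA per cell cannot be told apart.

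**Figure D1:**
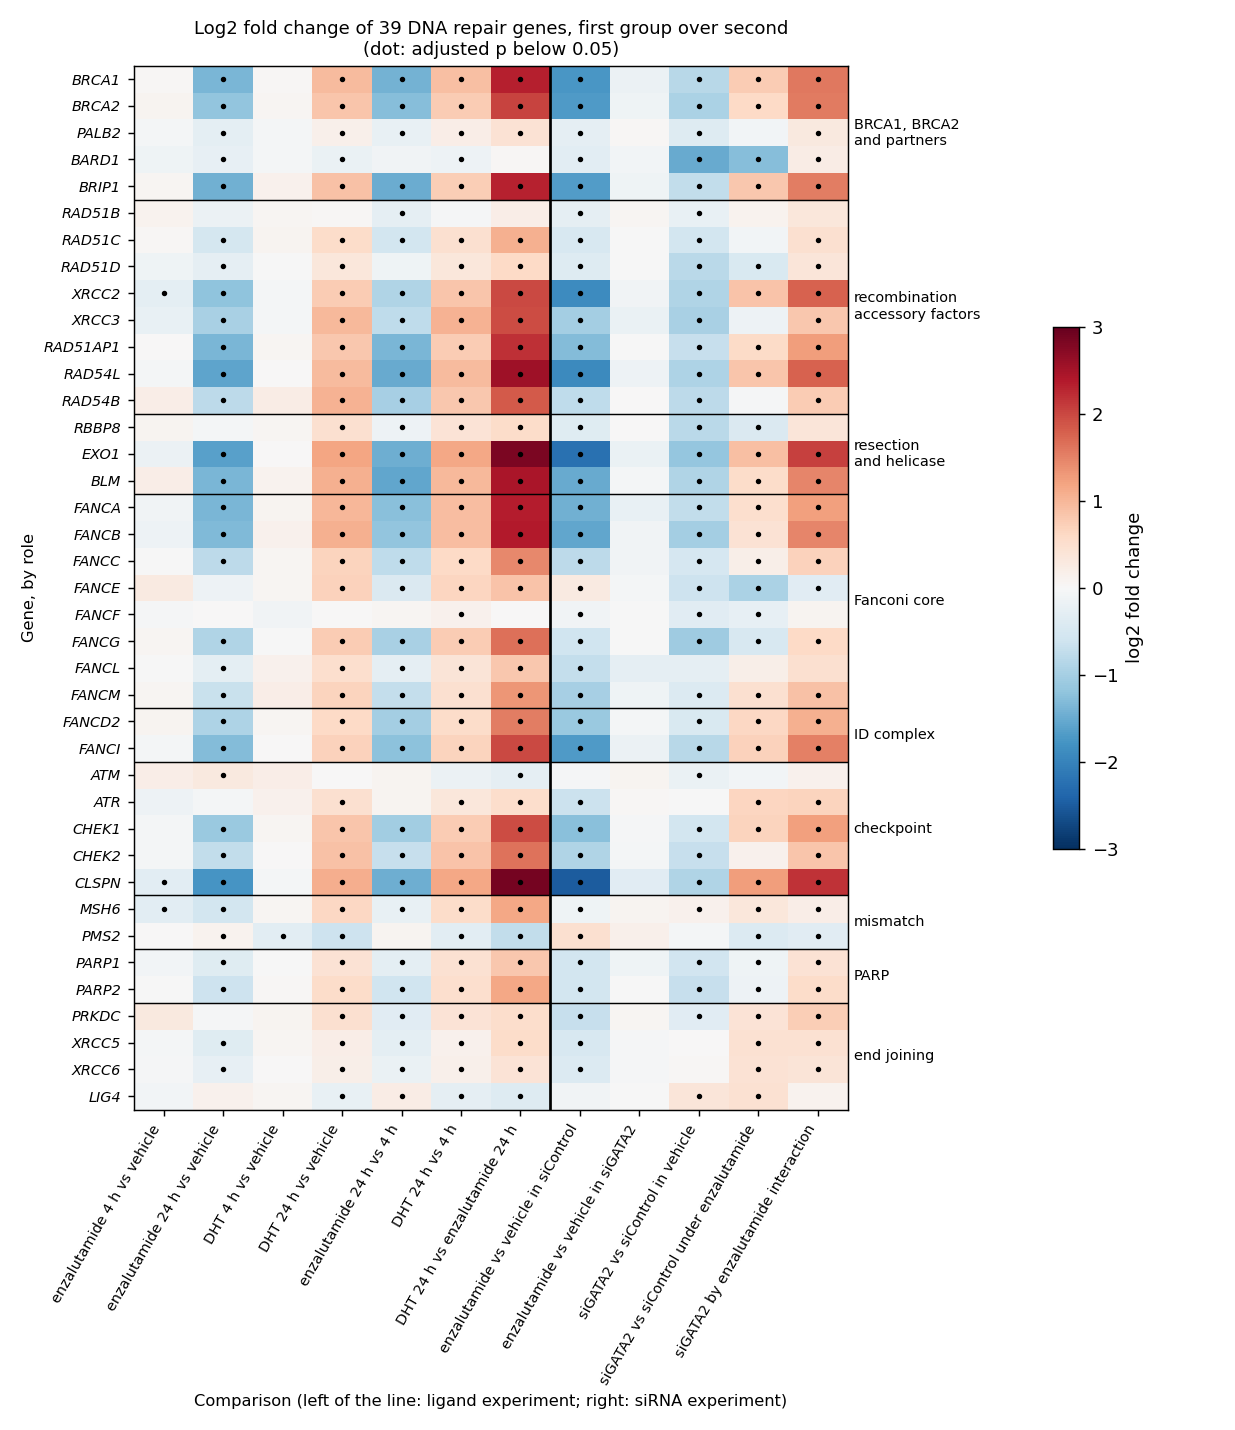
Heat map of log2 fold changes (first group over second, colour scale from -3 to 3) of the 39 genes, in rows by role, in the 7 comparisons of the ligand experiment and, right of the line, the 5 of the siRNA experiment. A dot marks an adjusted p below 0.05; the columns at 4 h and the column of enzalutamide in siGATA2 cells are nearly blank, with 3, 1 and 0 dots, and CLSPN holds the strongest colours, from -2.50 with enzalutamide in siControl cells to 2.87 for DHT over enzalutamide at 24 h.

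BRCA1, BRCA2 and BRIP1, the helicase that binds BRCA1, moved furthest among the 5 genes of that group, and BARD1 and PALB2 moved little. BRCA1 was at 70.5 and 63.7 CPM (per-library scaling of the counts with TMM factors) in vehicle, at 25.8 and 26 after 24 h of enzalutamide and at 135 and 126 after 24 h of DHT. Its 4 libraries at 4 h read 67.6 to 70.4 CPM. It fell by 1.38 on the log2 scale (SE 0.0571, 2.60-fold, edgeR adjusted p = 1.03e-09) with enzalutamide and rose by 0.96 (SE 0.0521, 1.94-fold, adjusted p = 9.87e-09) with DHT, and the 3 groups did not overlap. BRCA2 was at 31.7 and 28.8 CPM in vehicle, 13.7 and 13 with enzalutamide and 54.1 and 54.3 with DHT at 24 h. BRIP1 was at 22.5 and 21.4 CPM in vehicle, 8.24 and 7.91 with enzalutamide and 41.1 and 39.2 with DHT. BRCA2 thus changed by -1.18 and 0.84 and BRIP1 by -1.45 and 0.87 on the log2 scale. BARD1, abundant in these cells, was at 284 and 270 CPM in vehicle, 234 and 235 with enzalutamide and 245 and 234 with DHT. It was called lower with both ligands, by 0.24 (SE 0.0463, edgeR adjusted p = 0.00144) and by 0.21 (SE 0.0464, adjusted p = 0.0021) on the log2 scale, the only one of the 39 called lower with both. PALB2, which bridges BRCA1 and BRCA2, changed by -0.29 with enzalutamide and 0.15 with DHT, both called.

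Of the 8 recombination accessory factors, 7 were called lower with enzalutamide and 7 higher with DHT at 24 h. RAD54L, a motor protein of strand invasion, was at 27.6 and 27.8 CPM in vehicle, 10.2 and 8.35 with enzalutamide and 55.4 and 52.3 with DHT. RAD51AP1, another factor of strand invasion, was at 27.3 and 26.2 CPM in vehicle, 10.6 and 10.0 with enzalutamide and 47.9 and 46.2 with DHT. XRCC2, which acts in strand exchange, was at 18.8 and 17.6 CPM in vehicle, 8.22 and 7.54 with enzalutamide and 30.3 and 31.5 with DHT. In these 3 genes the falls at 24 h of enzalutamide were 2.98-fold, 2.60-fold and 2.31-fold. XRCC3, the partner of RAD51C, went from 26.3 and 26.8 CPM to 14.2 and 12.7 with enzalutamide and to 50.2 and 54.1 with DHT, 1.98-fold lower and 1.96-fold higher. RAD54B, a relative of RAD54L, went from 22.3 and 23.3 CPM to 12.5 and 13.9 and to 47.6 and 46.8, and was over 2-fold higher with DHT (log2 fold change 1.05, SE 0.0685). RAD51C and RAD51D changed less, by -0.52 and -0.26 with enzalutamide and by 0.55 and 0.33 with DHT. RAD51B was called in neither comparison, with log2 fold changes of -0.18 (edgeR adjusted p = 0.138) and 0.03 (adjusted p = 0.788). FSBP on the same strand shares exons with RAD54B, and KLC1 and LRRC41 overlap XRCC3 and RAD54L on the opposite strand.

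EXO1 and BLM, which resect long stretches of the broken end, moved more than RBBP8, which starts resection. EXO1 was at 19.4 and 17.5 CPM in vehicle, 6.11 and 5.79 with enzalutamide and 43.5 and 40.9 with DHT at 24 h. It fell by 1.64 (SE 0.0977, 3.12-fold, edgeR adjusted p = 2.99e-08) and rose by 1.19 (SE 0.0797, 2.28-fold, adjusted p = 6.37e-08) on the log2 scale. The rise with DHT was the largest of the 39. BLM was at 10.2 and 10.3 CPM in vehicle, 3.83 and 4.03 with enzalutamide and 21.3 and 21.6 with DHT, 2.61-fold lower and 2.09-fold higher. RBBP8 rose by 0.48 with DHT, and its change with enzalutamide, -0.07, was not called (edgeR adjusted p = 0.32).

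The Fanconi genes fell and rose in the same way, except FANCF, called with neither ligand, and FANCE, called with DHT alone. Of the 8 genes of the core complex, which attaches ubiquitin to FANCD2 and FANCI at a crosslink, 6 were called lower with enzalutamide and 7 higher with DHT at 24 h. FANCA was at 23.1 and 23.5 CPM in vehicle, 8.66 and 9.52 with enzalutamide and 46.7 and 46.6 with DHT. FANCB, encoded on the X chromosome, was at 5.04 and 4.67 CPM in vehicle, 2.05 and 1.82 with enzalutamide and 10.4 and 9.94 with DHT. Both were over 2-fold lower (2.56-fold and 2.52-fold) and over 2-fold higher (2.01-fold and 2.09-fold). FANCG went from 29.4 and 29.1 CPM to 16.2 and 15.1 and to 49.2 and 50.1, and FANCM, the motor that anchors the complex to DNA, from 18.5 and 17.2 CPM to 11.5 and 11.2 and to 29.9 and 27. FANCC and FANCL, which carries the ubiquitin ligase domain, changed by -0.78 and -0.29 with enzalutamide and by 0.67 and 0.51 with DHT. FANCE was at 8.47 and 9.75 CPM in vehicle, 8.46 and 7.72 with enzalutamide and 14.8 and 14.6 with DHT, so that it rose with DHT (log2 fold change 0.70) while its change of -0.16 with enzalutamide was not called (edgeR adjusted p = 0.23). FANCF, an intronless gene, stayed between 42.1 and 47.3 CPM in all 10 libraries and was called with neither ligand against vehicle. FANCD2, which these ligases modify, was at 69.3 and 66.4 CPM in vehicle, 35.1 and 36 with enzalutamide and 99.4 and 107 with DHT. FANCI, its partner, was at 125 and 119 CPM, 49.2 and 50.1, and 196 and 197, which is 2.45-fold lower and 1.61-fold higher, although POLG overlaps its exons on the opposite strand. FANCD2 has a pseudogene copy that could take some of its reads.

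Among the 5 checkpoint factors, CLSPN, CHEK1 and CHEK2 moved with both ligands, while ATR and ATM were not called lower with enzalutamide. CLSPN, the adaptor through which ATR activates CHEK1, showed the largest fall of the 39. It was at 40.2 and 39.3 CPM in vehicle, 11.9 and 11.5 after 24 h of enzalutamide and 87.4 and 83.5 after 24 h of DHT, and its 4 libraries at 4 h lay between 30.5 and 38.5 CPM. The fall was 1.77 (SE 0.0591, 3.40-fold, edgeR adjusted p = 2.97e-10) and the rise 1.10 (SE 0.0504, 2.15-fold, adjusted p = 1.81e-09) on the log2 scale. CHEK1 was at 40.2 and 38.0 CPM in vehicle, 18.5 and 17.8 with enzalutamide and 70.7 and 69.5 with DHT. CHEK2, the target of ATM, changed by -0.74 and 0.88, and pseudogene copies of it could take reads. ATR rose with DHT (0.47) and showed -0.06 with enzalutamide (edgeR adjusted p = 0.439). ATM was at 51.3 and 45.5 CPM in vehicle, 57.6 and 61.9 with enzalutamide and 48.2 and 50.6 with DHT. It was called higher with enzalutamide (log2 fold change 0.30, SE 0.0966, edgeR adjusted p = 0.0302), while vehicle replicate 2 held its lowest value. Without vehicle replicate 2 its change was 0.21 (edgeR adjusted p = 0.221), without enzalutamide 24 h replicate 1 it was 0.34 (adjusted p = 0.0644) and without replicate 2 of that group 0.24 (adjusted p = 0.204).

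PMS2, an endonuclease of mismatch repair, ran opposite to most of the list. It was at 132 and 137 CPM in vehicle, 148 and 141 with enzalutamide and 87.6 and 86.6 with DHT at 24 h, and at 108 and 109 CPM already after 4 h of DHT. It fell with DHT by 0.63 (SE 0.038, 1.54-fold, edgeR adjusted p = 2.63e-08), and its rise of 0.11 with enzalutamide (adjusted p = 0.0423) lost the call when any 1 of 8 of the 10 libraries was left out (all but those of enzalutamide at 4 h), with adjusted p-values of 0.0693 to 0.428 there. PMS2 has many pseudogene copies, among which reads may have been split. MSH6, which recognizes mismatches, went the way of the recombination genes, from 89.6 and 85.4 CPM in vehicle to 61.1 and 58.5 with enzalutamide and to 137 and 133 with DHT. Of the PARP enzymes, PARP1 changed by -0.37 with enzalutamide and 0.44 with DHT, and PARP2 by -0.61 and 0.54, all of them called. The end joining factors moved least. XRCC5 and XRCC6, which form the Ku ring on a broken end, changed by -0.36 and -0.24 with enzalutamide and by 0.20 and 0.18 with DHT, all called. PRKDC, the DNA-dependent protein kinase, rose by 0.48 with DHT and was not called with enzalutamide (-0.04, edgeR adjusted p = 0.786). LIG4, the ligase of this pathway, was at 29.5 and 28 CPM in vehicle and 25.3 and 23.7 with DHT, a fall of 0.23 (SE 0.0558, edgeR adjusted p = 0.00384), against 32.3 and 31.3 with enzalutamide (0.14, adjusted p = 0.0561).

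**Figure D2:**
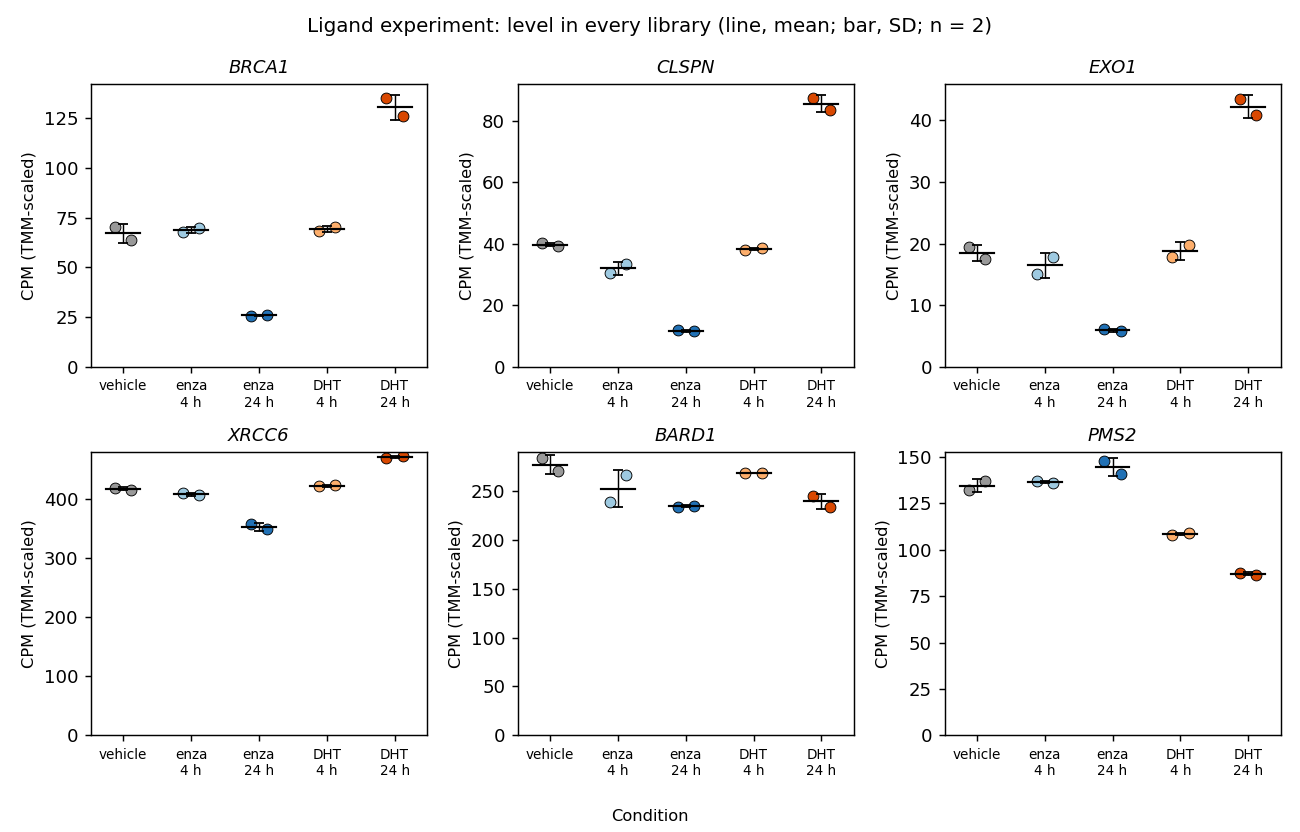
Level of 6 of the genes in each of the 10 libraries of the ligand experiment (CPM, linear axis from 0); points are libraries, lines means and bars the SD (n = 2). BRCA1, CLSPN and EXO1 lay below vehicle at 24 h of enzalutamide and above it at 24 h of DHT, XRCC6 spanned only 349 to 473 CPM, BARD1 lay below vehicle at 24 h of both, and PMS2 was lowest with DHT.

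At 4 h few of the 39 genes were called, and the number depended on the setting. With enzalutamide, 3 were called lower and 0 higher, against 6.68% and 6.94% of all genes tested, and the median log2 fold change was -0.03. The 3 genes were MSH6 (-0.32, SE 0.0435), CLSPN (-0.31, SE 0.0532) and XRCC2 (-0.30, SE 0.0654), which read 68.5 and 71.5, 30.5 and 33.5, and 14.6 and 15.0 CPM in the treated libraries. With an unadjusted p below 0.05, 4 were higher and 7 lower, and DESeq2 called 0 higher and 4 lower. The fit with no filter on low counts called 4 and 6, and that with each vehicle column as its own sample called 3 and 7. Without enzalutamide 4 h replicate 1 the number higher became 4, while without replicate 2 the number lower became 5. Shares of all genes in these settings were not counted. With DHT at 4 h, 0 were called higher and 1 lower, PMS2 (log2 fold change -0.31, SE 0.0374, edgeR adjusted p = 0.000111), against 4.66% and 2.11% of all genes. With an unadjusted p below 0.05, 3 were higher and 2 lower, and DESeq2 called 0 and 1, again with no count over all genes. KLK3 (PSA), an androgen-responsive gene, was in contrast already 2.42-fold higher after 4 h of DHT and 8.25-fold higher after 24 h. With enzalutamide KLK3 changed by -0.30 (SE 0.0518) after 4 h, much as the 3 called genes, and by -1.22 after 24 h.

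The change between 4 h and 24 h was tested within each ligand, without the vehicle libraries. By the column names, both enzalutamide libraries at 4 h carried another set prefix than both at 24 h, and what the prefix stands for is not given there. Time and set cannot be told apart there. The DHT libraries at 4 h also shared no set with those at 24 h. With enzalutamide, 32 of the 39 genes were lower at 24 h than at 4 h and 1 was higher, LIG4 (0.23, SE 0.0547), with a median of -0.69, against 12.9% of all genes called lower and 11.7% higher. With DHT, 34 were higher and 3 lower (PMS2, LIG4 and BARD1), with a median of 0.56, against 26.3% and 23.5% of all genes. These comparisons have no library in common. Of the 39 genes, 31 were called lower with time in enzalutamide and higher with time in DHT, and the share of all genes called in both these ways was not counted. Across the 39 genes the log2 fold changes with time ran opposite (Pearson r = -0.86, Spearman rho = -0.87, opposite signs in 35, 89.7%). Across 15555 genes r was -0.21, rho -0.22 and signs were opposite in 57.5%, which is a description across genes that are not independent. BLM, BRIP1 and RAD54L changed most with time in enzalutamide, by -1.57, -1.50 and -1.51 on the log2 scale. EXO1, CLSPN and XRCC3 rose most with time in DHT, by 1.17, 1.16 and 1.04.

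**Figure D3:**
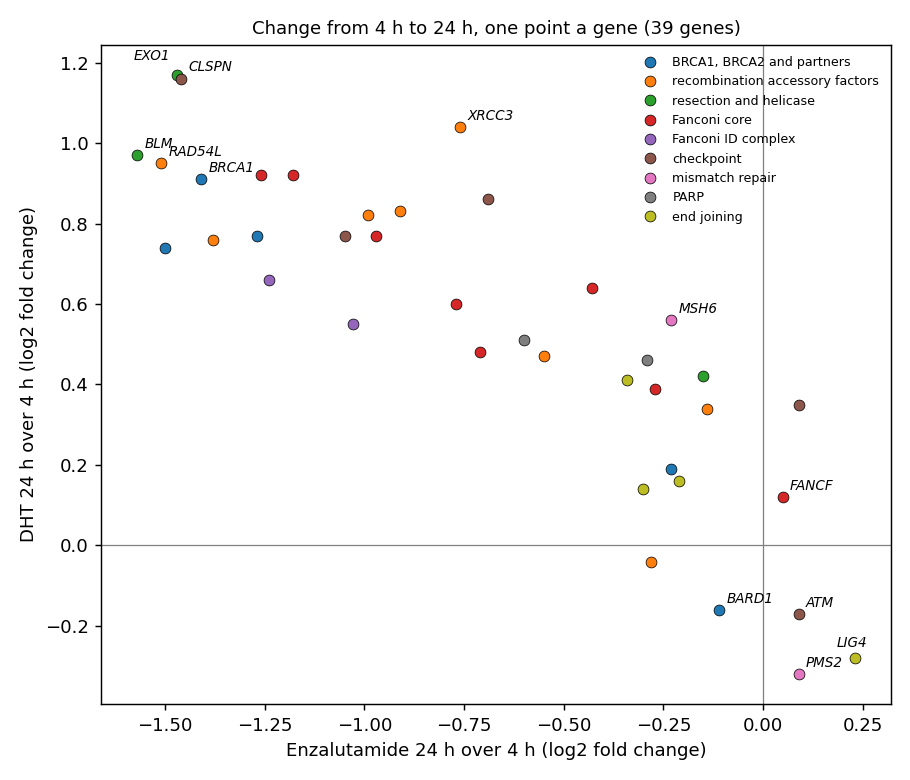
Log2 fold change from 4 h to 24 h with enzalutamide (x axis) and with DHT (y axis), one point for each of the 39 genes, coloured by role. EXO1, CLSPN, BLM, RAD54L and BRCA1 lie at the upper left, lower with enzalutamide and higher with DHT, XRCC5 and XRCC6 lie nearer to 0, and LIG4 and PMS2 lie at the lower right.

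Set directly against each other at 24 h, DHT exceeded enzalutamide for 33 of the 39 genes and was lower for 3, with a median of 1.33 (2.51-fold), against 31.3% and 33.6% of all genes. Over 2-fold higher were 23 genes, against 5.46% of all genes tested. CLSPN differed 7.32-fold (log2 fold change 2.87, SE 0.0574, edgeR adjusted p = 2.98e-13), EXO1 7.10-fold, RAD54L 5.80-fold, BLM 5.46-fold and BRCA1 5.04-fold. PMS2 (-0.73), LIG4 (-0.38) and ATM (-0.28) were lower with DHT, while BARD1, at 0.03, and FANCF, at 0.00, were not called.

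All 20 proliferation markers (such as CDC6, E2F1 and RRM2) were called lower at 24 h of enzalutamide, with a range of -1.67 to -0.93, and all 20 higher at 24 h of DHT, with a range of 0.21 to 1.13, and their medians were -1.21 and 0.82. Their part in the change of the 39 genes was not tested. Of 76 other repair genes tested, 37 were called lower and 7 higher with enzalutamide (median -0.20), and 43 higher and 5 lower with DHT (median 0.26) at 24 h. The 41 other recombination and Fanconi genes counted 18 lower, 4 higher and a median of -0.11 with enzalutamide and 23 higher, 3 lower and a median of 0.21 with DHT, although EME1, RMI2 and C17orf53 changed by -1.37, -1.36 and -1.33 with enzalutamide. Of the 22 other checkpoint genes, 17 were lower and 1 higher with enzalutamide (median -0.49), and DTL changed by -1.49 with enzalutamide and by 1.07 with DHT. Of the 3 other mismatch repair genes, MSH3 (0.17) and MLH3 (0.16) were called higher with enzalutamide and 0 lower. Of the 10 other end joining genes, 2 were lower and 0 higher with enzalutamide (median -0.04) and 3 higher and 2 lower with DHT (median 0.07), among them POLQ, a polymerase of the alternative pathway, which changed by -1.10 and 0.83.

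Whether GATA2 bears on the response was asked in the siRNA experiment, where levels are RPKM and folds are on the log2(RPKM + 0.1) scale, which understates the change of low genes. GATA2 itself read 83.8, 77.0 and 86.1 RPKM in siControl and 54.3, 53.4 and 46.6 in siGATA2 cells on vehicle, a 1.60-fold fall, and 128, 132 and 128 against 60.1, 64.7 and 61.5 under enzalutamide, a 2.08-fold fall. KLK3 fell 32.8-fold with siGATA2 on vehicle. In siControl cells, 35 of the 39 repair genes were called lower after 24 h of 25 μM enzalutamide and 2 higher with limma (20369 genes tested), against 24.4% of all genes called lower and 17.7% higher. The median log2 fold change was -0.72, and 16 genes were over 2-fold lower, against 1.46% of all genes. In siGATA2 cells, 0 of the 39 were called in either direction, with a median of -0.05 and a range of -0.33 to 0.16. At an unadjusted p below 0.05, 8 were lower and 1 higher, and the share of all genes at that threshold was not counted. By adjusted p, few genes of any kind were called there, 0.221% higher and 0.191% lower. The difference between both responses, tested as an interaction, was called for 33 of the 39, with 31 higher (a weaker fall in siGATA2 cells) and 2 lower, against 15.0% and 10.8% of all genes, and 14 exceeded 2-fold, against 1.07%.

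In the absence of enzalutamide, siGATA2 had by itself lowered most of these genes. On vehicle, siGATA2 left 32 of the 39 called lower and 2 higher, MSH6 and LIG4, with a median of -0.69, against 31.4% and 24.2% of all genes. Over 2-fold lower were 4, BARD1, EXO1, FANCG and FANCB, against 3.72% of all genes. Under enzalutamide the order turned for many of them, since siGATA2 cells then exceeded siControl cells for 22 genes and fell below them for 9, with a median of 0.42, against 26.3% and 28.1% of all genes. Each of these comparisons shares libraries with both comparisons of enzalutamide with vehicle and with the interaction. Of the proliferation markers, 20 of 20 were lower with enzalutamide in siControl cells (median -1.31), 0 called in siGATA2 cells, where all 20 had a negative sign (median -0.17), 20 of 20 lower with siGATA2 on vehicle (median -0.85) and 20 of 20 higher in the interaction (median 1.2), and their part was not tested.

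**Figure D4:**
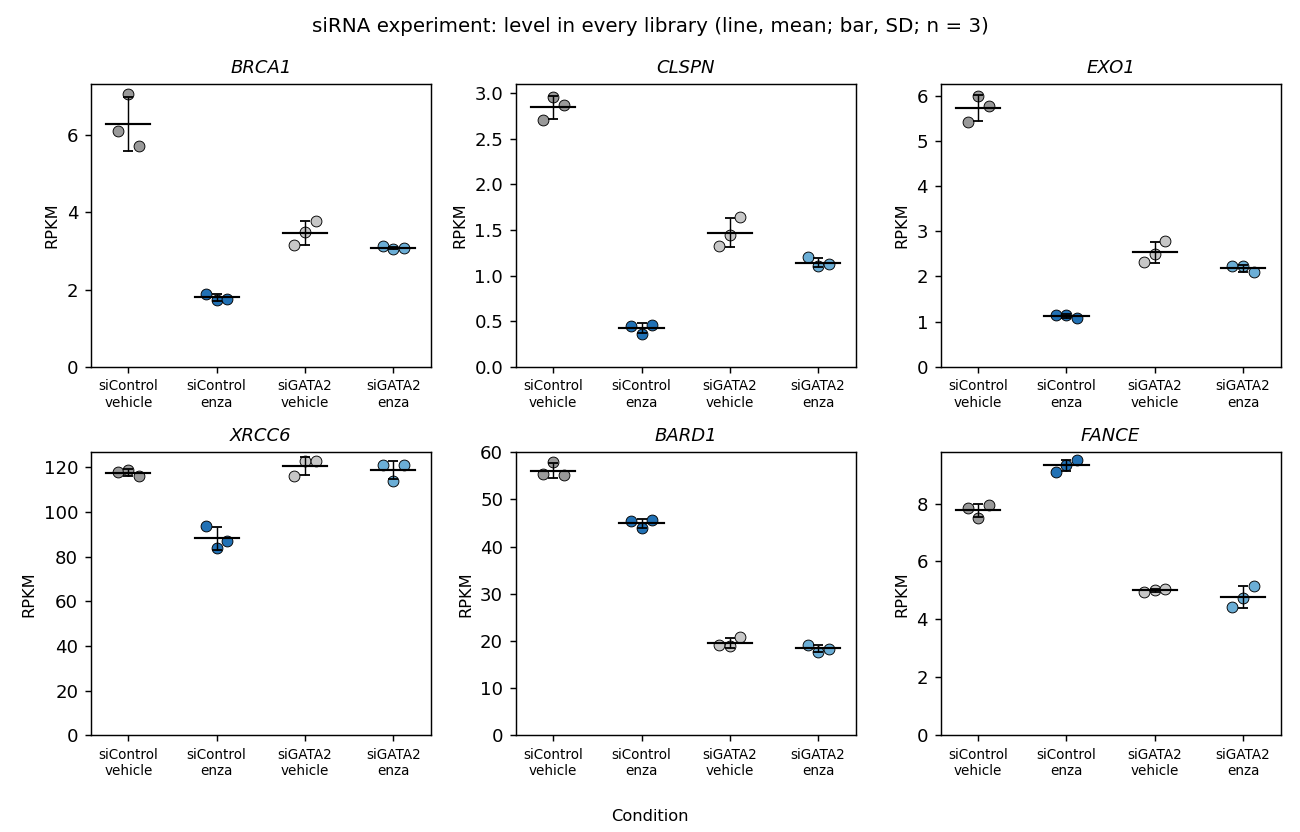
Level of 6 of the genes in each of the 12 libraries of the siRNA experiment (RPKM, linear axis from 0); points are libraries, lines means and bars the SD (n = 3). BRCA1, CLSPN and EXO1 were highest in siControl vehicle and lowest in siControl enzalutamide libraries, with both siGATA2 groups between them, BARD1 and FANCE were lower in both siGATA2 groups, and XRCC6 was lowest in siControl cells on enzalutamide.

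BRCA1 read 6.12, 7.07 and 5.71 RPKM in siControl cells on vehicle and 1.89, 1.74 and 1.76 under enzalutamide, and 3.15, 3.5 and 3.77 against 3.12, 3.05 and 3.07 in siGATA2 cells. The fall was 3.37-fold in siControl cells (log2 fold change -1.75, SE 0.0813, limma adjusted p = 1.1e-07), and the interaction was 1.59 (SE 0.115, adjusted p = 9.67e-06). In siGATA2 cells the interval of the change, -0.35 to 0.02 on the log2 scale, did not reach a fall of that size. BRCA2 read 3.76, 4.43 and 3.72 RPKM, then 1.2, 1.12 and 1.16 under enzalutamide in siControl cells, and 1.87, 1.79 and 2.32, then 1.94, 1.67 and 1.8 in siGATA2 cells. BRIP1 read 1.84, 1.97 and 1.68, then 0.523, 0.491 and 0.496 RPKM in siControl cells, and 0.996, 1.11 and 1.06, then 0.989, 0.921 and 0.939 in siGATA2 cells. In all 3 genes both siGATA2 groups lay between those of siControl cells. The siGATA2 groups overlapped for BRCA2 and did not overlap for BRCA1 and BRIP1, whose changes between them, -0.17 and -0.14, were not called (limma adjusted p = 0.504 and 0.542). BARD1 showed another pattern. It read 55.3, 58.0 and 55.1 RPKM on vehicle and 45.4, 43.9 and 45.6 under enzalutamide in siControl cells, but 19.1, 19 and 20.8 and then 19.2, 17.7 and 18.4 in siGATA2 cells. The fall with siGATA2 on vehicle, 2.85-fold (log2 fold change -1.51, SE 0.0408, limma adjusted p = 7e-10), was the largest of the 39, and it was still 2.43-fold under enzalutamide. PALB2 changed by -0.27 with enzalutamide in siControl cells and by -0.39 with siGATA2 on vehicle.

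All 8 recombination accessory factors were called lower with enzalutamide in siControl cells and all 8 lower with siGATA2 on vehicle. RAD54L read 12.4, 12 and 12, then 3.44, 2.99 and 2.97 RPKM under enzalutamide in siControl cells, and 6.64, 5.95 and 6.45, then 5.52, 6.0 and 5.47 in siGATA2 cells. XRCC2 read 4.4, 4.96 and 4.41, then 1.28, 1.09 and 1.17 RPKM, and 2.44, 2.22 and 2.53, then 2.4, 2.07 and 2.21. These were falls of 3.78-fold and 3.68-fold in siControl cells, with interactions of 1.76 (SE 0.0874) and 1.78 (SE 0.115). RAD51AP1 read 11.5, 12.8 and 10.7, then 4.86, 4.42 and 4.82 RPKM in siControl cells, and 6.33, 7.35 and 7.86, then 7.53, 6.44 and 7.2 in siGATA2 cells. XRCC3 read 14.2, 13 and 14.3, then 7.38, 6.52 and 6.35 RPKM, and 6.64, 7.44 and 7.02, then 6.19, 5.75 and 6.26. For XRCC3 the siGATA2 level under enzalutamide was not called different from that of siControl cells (-0.15, limma adjusted p = 0.0778). RAD51D was one of the 9 genes lower in siGATA2 cells under enzalutamide, at 2.78, 2.95 and 2.76 against 4.12, 3.91 and 3.76 RPKM (-0.46). RAD54B, whose interaction was 0.76, did not differ beyond the spread under enzalutamide (-0.03, limma adjusted p = 0.896).

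EXO1 again stood out in resection. It read 5.42, 6.0 and 5.77, then 1.15, 1.14 and 1.08 RPKM under enzalutamide in siControl cells, and 2.33, 2.49 and 2.78, then 2.23, 2.23 and 2.09 in siGATA2 cells. The fall in siControl cells was 4.76-fold (log2 fold change -2.25, SE 0.0666, limma adjusted p = 8.52e-09), the fall with siGATA2 on vehicle 2.21-fold, and the interaction 2.05 (SE 0.0942, adjusted p = 9.76e-07). The siGATA2 groups did not overlap, although the change between them, -0.20, was not called (limma adjusted p = 0.292). BLM read 1.61, 1.73 and 1.48, then 0.508, 0.507 and 0.485 RPKM in siControl cells, and 0.73, 0.841 and 0.878, then 0.76, 0.76 and 0.836 in siGATA2 cells. RBBP8 was lower in siGATA2 cells under enzalutamide too, at 4.16, 3.75 and 4.65 against 6.06, 5.03 and 6.11 RPKM.

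In the Fanconi core, 7 of 8 genes were called lower and FANCE higher with enzalutamide in siControl cells. FANCB read 1.35, 1.53 and 1.29, then 0.46, 0.358 and 0.387 RPKM, and 0.633, 0.579 and 0.683, then 0.656, 0.511 and 0.566 in siGATA2 cells, which is 2.98-fold lower with enzalutamide and 2.04-fold lower with siGATA2. FANCA read 3.74, 3.87 and 3.72, then 1.46, 1.22 and 1.28 RPKM, and 2.33, 2.06 and 2.34, then 2.0, 1.79 and 1.92. FANCM, 2.01-fold lower with enzalutamide, read 2.11, 2.08 and 1.99, then 1.02, 0.93 and 0.98 RPKM in siControl cells and 1.26 to 1.64 in all siGATA2 libraries. FANCG and FANCE fell with siGATA2, with and without the drug. FANCG read 18.5, 16.6 and 16.9 RPKM in siControl against 8.38, 8.22 and 8.04 in siGATA2 cells on vehicle (2.10-fold), and 11.1, 11.8 and 11.3 against 7.9, 8.55 and 7.97 under enzalutamide. FANCE read 7.83, 7.51 and 7.95, then 9.1, 9.34 and 9.5 RPKM in siControl cells, and 4.96, 5.01 and 5.05, then 4.42, 4.73 and 5.16 in siGATA2 cells. Its rise in siControl cells, 0.26 (SE 0.049, limma adjusted p = 0.00154), was not called in the ligand experiment, where the dose differed. FANCF stayed at 14.2 to 15.7 RPKM in siControl libraries, and at 11.8 to 13.1 in siGATA2 libraries, and was called lower with siGATA2 both on vehicle (-0.33) and under enzalutamide (-0.24). FANCD2 read 7.73, 8.12 and 7.22, then 3.74, 3.38 and 3.36 RPKM, and 5.54, 5.25 and 6.04, then 5.55, 5.29 and 5.33. FANCI read 22.5, 22.9 and 21.8, then 7.28, 6.38 and 7.02 RPKM, and 12, 12.2 and 13.5, then 11.2, 10.8 and 11.4, with interactions of 1.06 and 1.52 for this pair.

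CLSPN showed the largest fall and the largest interaction of the 39. It read 2.71, 2.96 and 2.87, then 0.446, 0.359 and 0.461 RPKM under enzalutamide in siControl cells, and 1.32, 1.45 and 1.64, then 1.2, 1.1 and 1.13 in siGATA2 cells. The fall was 5.66-fold (log2 fold change -2.50, SE 0.0964, limma adjusted p = 3.25e-08), and the interaction was 2.17 (SE 0.136, adjusted p = 3.91e-06). Under enzalutamide siGATA2 cells held 2.40 times the level of siControl cells, the only rise over 2-fold in that comparison. CHEK1 read 6.75, 7.25 and 6.65, then 3.04, 2.67 and 2.74 RPKM, and 4.47, 4.47 and 5.11, then 4.8, 4.21 and 4.64. ATR fell with enzalutamide in siControl cells (-0.64) and showed no change that passed the test with siGATA2 on vehicle (-0.01, limma adjusted p = 0.899). ATM, at 3.04 to 4.06 RPKM in all 12 libraries, was called only in siGATA2 against siControl on vehicle (-0.21), and its change with enzalutamide, -0.04, was not called (limma adjusted p = 0.634).

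PMS2 rose with enzalutamide in siControl cells, from 5.34, 5.29 and 5.19 to 7.38, 7.57 and 7.29 RPKM (log2 fold change 0.48, SE 0.0293, limma adjusted p = 6.87e-07). The call of its smaller rise in the ligand experiment had depended on single libraries. In siGATA2 cells it went from 4.91, 4.99 and 5.11 to 5.73, 5.53 and 5.49 RPKM, a change of 0.16 that had the lowest adjusted p of the 39 there, 0.0637, and the interaction was -0.33. MSH6 was called higher with siGATA2, at 6.83, 6.65 and 6.84 against 6.29, 6.39 and 6.0 RPKM on vehicle (0.12, limma adjusted p = 0.0224), a call that was lost without siControl vehicle replicate 3 (adjusted p = 0.0869), siGATA2 vehicle replicate 1 (adjusted p = 0.0603) or siGATA2 vehicle replicate 3 (adjusted p = 0.0589). PARP1 and PARP2 fell alike, by 0.56 and 0.55 with enzalutamide in siControl cells and by 0.58 and 0.69 with siGATA2 on vehicle on the log2 scale. With the drug present both were below siControl levels in siGATA2 cells, at 74.4, 74.9 and 73.4 against 84.4, 82.3 and 79.2 RPKM for PARP1, and at 11.4, 11.7 and 12.4 against 13.4, 12.9 and 13.2 for PARP2.

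The Ku genes of end joining fell with enzalutamide, and no fall passed the test with siGATA2. XRCC5 and XRCC6 fell with enzalutamide in siControl cells (-0.49 and -0.41) and were not called with siGATA2 on vehicle (0.01 and 0.04, limma adjusted p = 0.795 and 0.47). PRKDC fell by 0.68 in siControl cells, from 50.8, 58.8 and 48.5 to 34.1, 31.8 and 32.2 RPKM. Unlike the Ku genes, PRKDC was also called lower with siGATA2 on vehicle (-0.33), at 41.0, 40.3 and 44.4 RPKM. With the drug present, siGATA2 cells exceeded siControl cells for all 4 end joining genes, by 0.42 to 0.46 on the log2 scale. LIG4 was called higher with siGATA2 on vehicle, at 6.67, 6.45 and 7.23 against 5.15, 5.33 and 5.23 RPKM (0.37, limma adjusted p = 0.000225), and was not called with enzalutamide in either cell state.

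Between the 2 experiments, which share no library and differ in dose and transfection, 30 of the 39 genes were called lower after 24 h of enzalutamide in both. Of all genes tested, 17% were called lower in the ligand experiment and 24.4% in siControl cells, and the share lower in both was not counted. Across the 39 genes the log2 fold changes ran together (Pearson r = 0.92, Spearman rho = 0.91, same sign in 35, 89.7%). Across 15404 genes tested in both, r was 0.58, rho 0.57 and the sign the same in 70.6%, a description across genes that are not independent. Called lower in siControl cells only were ATR, FANCF, PRKDC, RAD51B and RBBP8, and whether their changes differ between the experiments was not tested. Of the other repair genes in siControl cells, 46 of 76 were called lower and 9 higher with enzalutamide (median -0.29), led by DTL (-2.13) and RMI2 (-1.74), and 54 were lower and 10 higher with siGATA2 on vehicle (median -0.35), where NHEJ1 (-1.66) and NBN (-1.35) changed most. By GENCODE release 29, exons of 13 of the 39 genes overlap a gene on the opposite strand, among them ATM, BRCA1, CLSPN, FANCA, MSH6 and PALB2, and how the counting used strand is not given in the sources used here.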

How the data were processed

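LNCaP RNA-seq libraries had been made from poly(A) RNA with a directional kit and mapped to hg19 with TopHat 2.0, as per the labels and the methods of the study. For the ligand experiment the authors deposited estimated counts per gene from Partek, which splits reads among transcripts, so that 56.0% to 62.6% of the values were whole, and these were rounded here. For the siRNA experiment the authors deposited RPKM values, normalized to gene length and library size. Of 4 vehicle columns, 3 with replicate number 1 were summed, although the labels name 4 vehicle samples. Counts were fitted with edgeR 4.0.16 (quasi-likelihood test, TMM factors, filterByExpr) in 1 model over 10 libraries, and log2(RPKM + 0.1) with limma 3.58.1 (trend) over 12 libraries for genes above 0 in at least 3, in R 4.3.3. P-values were Benjamini-Hochberg adjusted over all genes tested, two-sided, with a threshold of 0.05, and a second rule added a fold above 2. Scripts were tested on simulated data. Alternatives were other scalings, no filter, other pseudocounts, a replicate block, DESeq2 1.42.0, the rule of fold above 2 with unadjusted p below 0.05, and each library left out. A further alternative, chosen after seeing the data, used vehicle columns of the same set, by the prefix of the column name. In the siRNA experiment, same-numbered libraries deviated together in every replicate in 1 pairing, that of both transfections with enzalutamide (r = 0.113, 0.241 and 0.148). There the block left 22 higher and 9 lower. In the ligand experiment r was -0.176 to 0.143.

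The 39 genes, the proliferation, p53 target and other repair lists and the motifs were chosen with earlier results of these data known. A gene was given with its value in the libraries of a comparison where it was called with over 2-fold change against vehicle or siControl, or called against the majority.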

Additional observations from a re-analysis of the deposited data

Results flagged for a closer look

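The response to enzalutamide differed between siGATA2 and siControl cells for 33 of the 39 genes by the interaction term of limma (Benjamini-Hochberg adjusted p below 0.05). On the log2 scale, the response in siGATA2 minus that in siControl cells was, in the first genes of the list, BRCA1 1.59, BRCA2 1.55, PALB2 0.3, BARD1 0.23, BRIP1 1.54, RAD51C 0.47, RAD51D 0.36, RAD51AP1 1.26, XRCC2 1.78, XRCC3 0.82, RAD54L 1.76, RAD54B 0.76, FANCA 1.23, FANCB 1.46, FANCC 0.68, FANCD2 1.06. In the remaining genes it was FANCE -0.33, FANCG 0.59, FANCI 1.52, FANCM 0.88, BLM 1.46, EXO1 2.05, ATR 0.66, CHEK1 1.22, CHEK2 0.83, CLSPN 2.17, MSH6 0.21, PMS2 -0.33, PARP1 0.44, PARP2 0.54, PRKDC 0.74, XRCC5 0.45, XRCC6 0.39. All are positive, a weaker fall in siGATA2 cells, except for FANCE and PMS2, and siGATA2 alone had already lowered most of these genes on vehicle.

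The level at 24 h of enzalutamide differed from that at 4 h for 33 of the 39 genes by edgeR, and the set, by the prefix of the column name, differed between these times as well. The lowest differences were -1.57 for BLM, -1.51 for RAD54L and -1.5 for BRIP1, and the highest were -0.21 for XRCC6, -0.15 for RBBP8 and 0.23 for LIG4. The level at 24 h of DHT differed from that at 4 h for 37 genes, again with other sets. The lowest differences were -0.32 for PMS2, -0.28 for LIG4 and -0.16 for BARD1, and the highest were 1.04 for XRCC3, 1.16 for CLSPN and 1.17 for EXO1.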

How the results depend on the processing

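Across the single genes and their alternatives, 7820 values stayed on their side of the threshold, 131 lost the call and 68 gained it. The sign changed in 77 values, all uncalled in both fits, and in 0 called ones. Counts of the 39 genes moved by over 1.5 times as follows, and the cause was not tested. At 4 h of enzalutamide, the numbers higher and lower were 4 and 6 with no filter on low counts and 3 and 7 with each vehicle column as its own sample. With a library left out they were 0 to 4 higher (4 without enzalutamide 4 h replicate 1) and 2 to 5 lower (5 without its replicate 2). At 24 h of enzalutamide, 1 was higher with RLE size factors, no filter, the replicate block or vehicle columns of the same set, 0 with DESeq2, and 0 to 3 with a library left out (0 without vehicle replicate 2 or either enzalutamide 24 h replicate, 1 without vehicle replicate 1 or any DHT library). At 4 h of DHT, 2 were higher with no filter, 1 with each vehicle column apart and 0 to 2 with a library left out (2 without either enzalutamide 4 h replicate). Between 24 h and 4 h of enzalutamide, 0 to 2 were higher (0 without enzalutamide 24 h replicate 1, 2 without enzalutamide 4 h replicate 2). In siGATA2 cells 1 gene, PMS2, was higher with enzalutamide with no filter or quantile normalization. With siGATA2 on vehicle, 1 to 2 were higher (1 without siControl vehicle replicate 3 or siGATA2 vehicle replicate 1 or 3). Under the rule of fold above 2 with unadjusted p below 0.05, the numbers higher and lower were 0 and 0 at 4 h of either ligand, 0 and 13 at 24 h of enzalutamide, 6 and 0 at 24 h of DHT, 0 and 13 between enzalutamide times, 3 and 0 between DHT times, 23 and 0 for DHT over enzalutamide, 0 and 16 in siControl cells, 0 and 4 with siGATA2 on vehicle, 1 and 1 under enzalutamide, and 14 and 0 for the interaction. The replicate block gave 30 lower at 24 h of enzalutamide and 32 higher at 24 h of DHT. Shares of all genes under these alternatives were not counted. Elsewhere correlations of same-numbered libraries were -0.342 to 0.28, and a pairing by number was not established. The 2 libraries per ligand condition limit what small changes can show.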

Other observations

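Genes that p53 switches on, such as CDKN1A, were followed as 16 targets. With edgeR, 5 were called higher and 0 lower at 4 h of enzalutamide against vehicle, against 6.94% and 6.68% of all genes tested. At 24 h of enzalutamide 6 were higher and 1 lower, against 16.4% and 17%, and at 24 h of DHT 0 were higher and 9 lower, against 26.9% and 23.2%. With limma, 12 were called higher and 1 lower with enzalutamide in siControl cells (median log2 fold change 0.31), against 17.7% and 24.4% of all genes, and 0 of the 16 were called in siGATA2 cells. With siGATA2 on vehicle, 2 were higher and 11 lower (median -0.46), against 24.2% and 31.4%, and under enzalutamide 0 were higher and 15 lower (median -0.80), against 26.3% and 28.1%. The interaction was called lower for 10 and higher for 0, against 10.8% and 15% of all genes.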
